A study of Mus musculus with 9 samples.

Results

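The phagocyte NADPH oxidase is the enzyme with which Mϕs and neutrophils make superoxide. Here 6 of its genes were followed in mouse bone marrow (BM)-derived Mϕs: Cybb, Cyba, Ncf1, Ncf4, Rac2 and its partner, the proton channel gene Hvcn1. The genes were chosen by symbol, as the oxidase complex and its proton channel; that rule uses no measured value, but it was set with earlier results of these data known. All 6 were found among the 53379 genes of the deposited table, 1 row each, and all 6 were expressed well above the level required for testing. The libraries are 9 in number, 3 from each of 3 conditions. BM cells of wild-type C57BL/6 mice were grown in 10 ng/ml MCSF, a growth factor that drives marrow cells to become Mϕs, for 3 days. Control cells then received 10 ng/ml MCSF alone for 4 more days, the IL-4 group the same MCSF with 10 ng/ml IL-4, and the IL-6 group the same MCSF with 100 ng/ml IL-6, as the labels give the doses. The study's methods give a higher IL-4 dose with the same IL-6 dose, and its legends another dose of each cytokine and a shorter time. All groups therefore carried MCSF throughout. The libraries of each condition are numbered 1 to 3, and no source used here says whether a number marks the same mouse in each condition. The cells were cultured in bulk without a sort.

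The enzyme is built from a membrane part and a cytosolic part. The catalytic flavocytochrome gp91phox, encoded by Cybb, is held in the membrane by p22phox, encoded by Cyba. On activation the organizer p47phox (Ncf1) carries its cytosolic partners, among them the lipid-binding p40phox (Ncf4), to the membrane. There a loaded Rac GTPase, such as Rac2, completes the enzyme. Electrons then pass from NADPH across the membrane to oxygen, and protons that leave through the channel encoded by Hvcn1 balance the charge. Inherited loss of one of the subunits causes chronic granulomatous disease, in which phagocytes fail to kill certain microbes.

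Values are FPKM, fragments normalised to exon length and to the size of the library, so levels of different genes can be compared per length. Total fragments ran from 29988160 to 39909571 per library. Both treatments left a clear mark: Socs3, a STAT3 target, was at 2.27 ± 0.653 FPKM in control and 80.4 ± 5.42 FPKM in IL-6 libraries (SD, n = 3 each, as for every mean below), and Arg1, a classical IL-4 target, was at 0.577 ± 0.156 FPKM in control and 1044 ± 273 FPKM in IL-4 libraries. The labelled cell type was borne out by its markers, since all 8 Mϕ markers were expressed, with summed levels of 16662 to 18966 FPKM in control, 6021 to 7062 FPKM in IL-4 and 20369 to 21461 FPKM in IL-6 libraries. Lyz2 alone gave most of these sums, with 13786 to 16064 FPKM in control, 4479 to 5734 FPKM in IL-4 and 17852 to 18963 FPKM in IL-6 libraries. The sum was lower in every IL-4 library, 7 of the 8 markers were lower in every IL-4 than in any control library, and 5 (Adgre1, Fcgr1, Csf1r, Cd14 and Lyz2) were called lower there. Itgam went the other way, at 35.2, 33.7 and 36.8 FPKM in control and 72.3, 70.7 and 37.2 FPKM with IL-4. The 12 neutrophil markers, which come from cells that use the same oxidase, summed to 1211 to 2046 FPKM in control, 465 to 591 FPKM in IL-4 and 1776 to 2515 FPKM in IL-6 libraries. None of those 12 was at 0. Against control, 9 of the 12 were called lower with IL-4 (Mmp8, Mpo, Elane, Retnlg, Cxcr2, Ngp, Ltf, Camp and Prtn3) and 2 higher with IL-6 (Mmp8 and Stfa2l1), and 11 were called higher with IL-6 than with IL-4. Of the 8 mast cell, basophil and eosinophil markers, Cpa3, Fcer1a and Mcpt8 were called higher and Prg2 and Ccr3 lower with IL-4 against control, and Prg2 lower with IL-6; the list summed to 74.2 to 170 FPKM in control, 43.3 to 65.8 FPKM in IL-4 and 21.1 to 37.7 FPKM in IL-6 libraries. The 6 erythroid and megakaryocyte markers summed to 276 to 428, 113 to 218 and 1022 to 2082 FPKM in the same order, with Pf4 and Itga2b called higher with IL-6 and Pf4 lower with IL-4. In a bulk culture fewer cells of a type and less RNA per cell cannot be told apart, and the part of RNA of these other lineages in the oxidase values below was not tested.

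IL-4 #3 and the library sets stood apart and touch several values below. IL-4 #3 differed from the other IL-4 libraries by a root mean square of 1.13 on the log2 scale, against 0.339 to 0.774 for the other 8 libraries within their groups. Its levels also fell with gene length, by 0.123 log2 units per doubling of length, against slopes of −0.0448 to 0.0523 elsewhere. In addition, transcripts of intestinal epithelium, 18 genes in all, summed to 30.2 to 45.7 FPKM in the control libraries and IL-4 #1 and to 0.0139 to 0.269 FPKM in the other 5 libraries. Every control library lies in the first of these sets and every IL-6 library in the second, so for IL-6 against control the set and the treatment cannot be told apart. Only the IL-4 group holds both sets. A set term in a fit therefore rests on IL-4 #1 against IL-4 #2 and IL-4 #3, and does not separate set from IL-6.

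Cybb, the catalytic subunit (ENSMUSG00000015340.10, chrX:9435252-9487771, minus strand, GRCm38), had the largest fitted differences of the 6 genes with IL-6, of which the one against IL-4 passed the test and the one against control did not. Its level was 204, 120 and 148 FPKM in Control #1, #2 and #3. With IL-4 it was 153, 114 and 51.8 FPKM, and with IL-6 399, 311 and 294 FPKM. All IL-6 libraries lay above all libraries of the other groups, while the IL-4 and control libraries overlapped and IL-4 #3 was the lowest of the 9. The means were 157 ± 42.6 FPKM in control, 106 ± 51.0 FPKM with IL-4 and 335 ± 56.0 FPKM with IL-6. A gene was called where limma, fitted to log2(FPKM + 0.1) of 12824 genes, gave an adjusted p under 0.05 together with a log2 fold change whose size was 1 or more. By that rule Cybb rose with IL-6 against IL-4, with a log2 fold change of 1.78 (SE 0.383, limma adjusted p = 0.00871), and it was called in all 23 alternative fits with a log2 fold change of 1.33 or more. Against control the log2 fold change with IL-6 was 1.11 (SE 0.383, limma adjusted p = 0.134), which did not pass. The 3 groups share an estimate of the spread in that fit, IL-4 #3 included. The SE was 0.216 without IL-4 #3 and 0.214 with only control and IL-6 fitted, at the same log2 fold change. The adjusted p against control is taken up next. This limma adjusted p was under 0.05 in 4 of 23 alternatives, among them 0.00888 without IL-4 #3, 0.0137 when only the control and IL-6 libraries were fitted and 0.0203 with length and GC trends removed (log2 fold change 0.92). Over all tested genes these 3 fits put 3168, 2822 and 1805 under 0.05 for IL-6 against control, where the reported fit put 1077. Ncf1 and Ncf4 below had an adjusted p under 0.05 in the same 3 fits. Adding the library set to the model put the Cybb log2 fold change at 2.11 (limma adjusted p = 0.144). That value carries the difference of IL-4 #1 from IL-4 #2 and #3, on which the set term rests. For IL-4 against control the log2 fold change was −0.67 (SE 0.383, limma adjusted p = 0.247). IL-4 #3 held 0.389 times the mean of IL-4 #1 and #2, and IL-4 #1, the IL-4 library in the same set as the controls, held 0.973 times the control mean.

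Cyba, the membrane partner that holds gp91phox (ENSMUSG00000006519.11, chr8:122424776-122432930, minus strand, GRCm38), was the most abundant oxidase transcript in every library. The control libraries held 804, 1250 and 1044 FPKM, the IL-4 libraries 817, 979 and 2277 FPKM and the IL-6 libraries 778, 922 and 867 FPKM. The groups overlapped throughout, and IL-4 #3 alone stood far above the rest, at 2.54 times the mean of the other IL-4 libraries. None of the limma comparisons passed: the log2 fold change was 0.27 for IL-4 against control (95% interval −0.57 to 1.10, adjusted p = 0.625), −0.25 for IL-6 against control (−1.08 to 0.58, 0.746) and −0.52 between the cytokines (−1.35 to 0.31, 0.279). These intervals leave room for a doubling in IL-4, so a lack of change is not shown. Cyba and Cybb lie at opposite ends of exon length among the 6 genes, 1039 bases for Cyba and 5808 for Cybb, and IL-4 #3, whose levels fell with length, held the highest value of one and the lowest of the other. With length and GC trends removed the log2 fold change for IL-4 against control was 0.44 for Cyba and −0.46 for Cybb, and the part of length in these single values was not tested. In the fit without IL-4 #3 the Cyba log2 fold change for IL-4 against control was −0.18 instead of 0.27.

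Ncf1, which encodes the organizer p47phox (ENSMUSG00000015950.13, chr5:134220053-134229625, minus strand, GRCm38), separated the 3 conditions most cleanly. Control libraries held 107, 107 and 102 FPKM, IL-4 libraries 66.6, 71.1 and 59.5 FPKM and IL-6 libraries 125, 131 and 130 FPKM. No group overlapped another: every IL-4 library was lowest, and every IL-6 library highest. Ncf1 fell with IL-4, to 62.5% of the control mean, with a log2 fold change of −0.68 (SE 0.105, limma adjusted p = 0.00229), under the size required for a call. The difference held an adjusted p under 0.05 in all 23 alternatives, and IL-4 #1 held 0.634 times the control mean within the same set. Between the cytokines, Ncf1 was higher with IL-6 by a log2 fold change of 0.97 (SE 0.105, limma adjusted p = 0.000252), just under the size required. For IL-6 against control the log2 fold change was 0.29 (SE 0.105, limma adjusted p = 0.154). That p was under 0.05 in 3 of 23 alternatives: 0.0183 without IL-4 #3, 0.0276 with only these 2 groups fitted and 0.0265 with length and GC trends removed. Part of the Ncf1 exons overlaps Gtf2ird2 on the opposite strand. The library kit marks strand, but whether the counting used it is not given in the sources used here.

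Ncf4, which encodes the lipid-binding p40phox (ENSMUSG00000071715.11, chr15:78244801-78262580, plus strand, GRCm38), was highest with IL-6. Its level was 63.5, 77.3 and 70.2 FPKM in control, 61.0, 70.4 and 106 FPKM with IL-4 and 105, 112 and 113 FPKM with IL-6. Every IL-6 library exceeded every control library, and IL-4 #3 reached the IL-6 range. The log2 fold change for IL-6 against control was 0.65 (SE 0.198, limma adjusted p = 0.0912), which did not pass. The adjusted p was under 0.05 in 5 of 23 alternatives, among them 0.00264 without IL-4 #3, 0.00435 with only these 2 groups fitted, 0.00703 with length and GC trends removed and 0.00854 with quantile normalization. In the fit that also held the library set the log2 fold change was 0.15 (limma adjusted p = 0.735). The set term there rests on the IL-4 libraries alone, with IL-4 #3 among them, so that value does not separate set from IL-6. For IL-6 against IL-4 it was 0.52 (SE 0.198, limma adjusted p = 0.0740), and for IL-4 against control 0.13 (SE 0.198, limma adjusted p = 0.651). The adjusted p for IL-6 against IL-4 was under 0.05 in 4 of 23 alternatives and lowest, at 0.00101, without IL-4 #3.

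Rac2, a GTPase of blood cells that can switch the assembled enzyme on (ENSMUSG00000033220.6, chr15:78559167-78572783, minus strand, GRCm38), was lowest with IL-4. Control libraries held 134, 164 and 153 FPKM, IL-4 libraries 97.7, 94.3 and 106 FPKM and IL-6 libraries 131, 132 and 146 FPKM. The IL-4 libraries lay below all others, and control and IL-6 overlapped. Rac2 fell with IL-4, to 66.2% of the control mean, with a log2 fold change of −0.59 (SE 0.119, limma adjusted p = 0.00789). Against IL-4 it was higher with IL-6 by a log2 fold change of 0.45 (SE 0.119, limma adjusted p = 0.0195). Both depend on the scaling: after rescaling each library by its median ratio, the adjusted p was 0.157 for IL-4 against control and 0.341 between the cytokines. In the same order it was 0.000599 and 0.000673 with quantile normalization, and 0.00567 and 0.0112 with length and GC trends removed. It was under 0.05 in 20 and 17 of 23 alternatives. Over all 12824 genes the median was −0.20 for IL-4 against control and 0.22 between the cytokines in the reported fit. After median-ratio rescaling both medians were −0.00, and with quantile normalization they were −0.03 and −0.01. Ncf1 kept an adjusted p under 0.05 in both comparisons after the rescaling. Leaving out IL-4 #2 (0.0582), IL-6 #1 (0.0521), IL-6 #2 (0.0569) or IL-6 #3 (0.0838) also put the limma adjusted p of Rac2 between the cytokines above 0.05. For IL-6 against control Rac2 had a log2 fold change of −0.14 (SE 0.119, limma adjusted p = 0.578).

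Hvcn1, the voltage-gated proton channel (ENSMUSG00000064267.13, chr5:122206804-122242297, plus strand, GRCm38), was the least abundant and the most even of the 6. Its libraries held 29.6, 31.1 and 29.8 FPKM in control, 28.4, 33.1 and 28.5 FPKM with IL-4 and 31.9, 32.0 and 29.5 FPKM with IL-6. The groups overlapped in all comparisons. The log2 fold changes were −0.01 with IL-4 (95% interval −0.25 to 0.23) and 0.04 with IL-6 against control (−0.19 to 0.28), with limma adjusted p of 0.946 and 0.845. Hvcn1 exons overlap Tctn1 on the opposite strand.

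**Figure D1:**
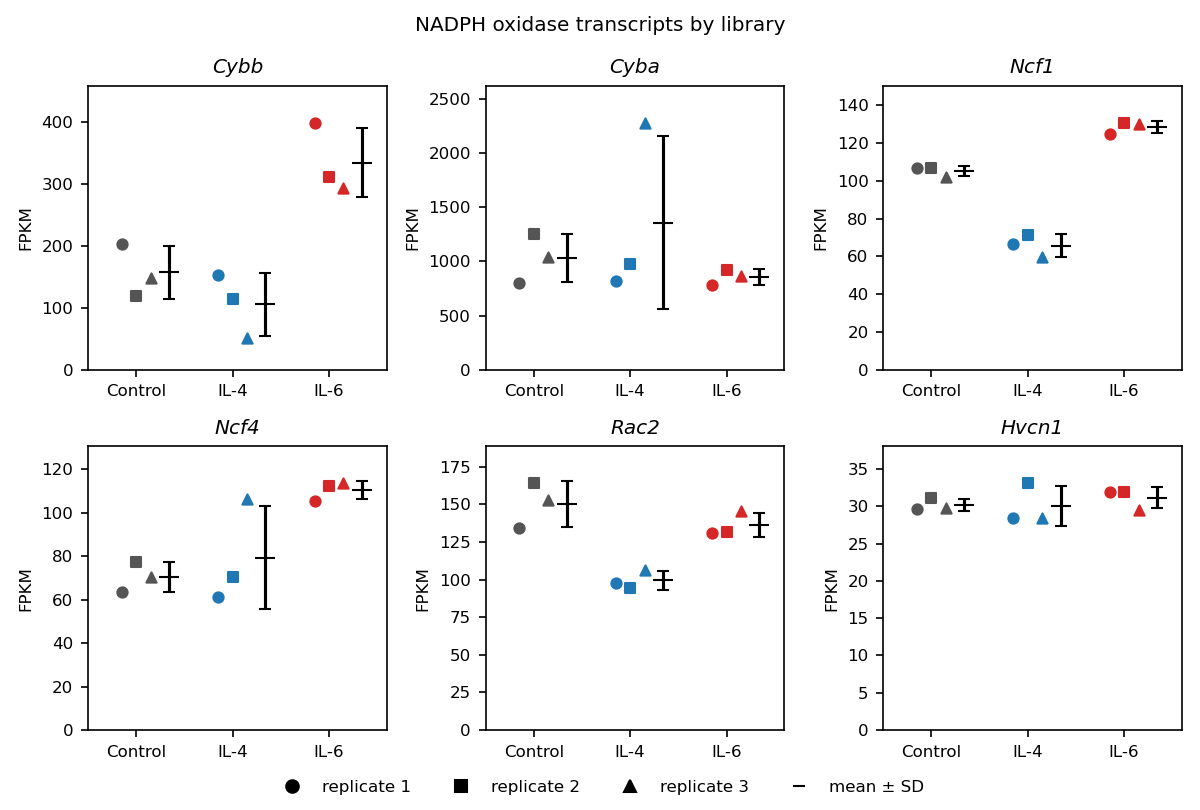
Level of each of the 6 genes in FPKM (vertical axis, from 0) in control, IL-4 and IL-6 libraries, with a marker for each replicate and the mean ± SD beside them (n = 3). IL-6 libraries lie above all others for Cybb and Ncf1, IL-4 libraries below all others for Ncf1 and Rac2, and IL-4 #3 (triangle) is the highest for Cyba and the lowest for Cybb.

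Counted together, 0 of the 6 genes were called for IL-4 against control, where 13.9% of all tested genes were called, and 0 of 6 for IL-6 against control, where 5.38% were. For IL-6 against IL-4 1 of 6 was called (Cybb), against 20.4% of all genes. By the adjusted p alone, 2 of 6 passed for IL-4 against control (Ncf1 and Rac2, both lower), where 24.8% of all genes passed. None of the 6 passed that way for IL-6 against control, where 8.4% of genes did, and 3 passed for IL-6 against IL-4 (Cybb, Ncf1 and Rac2, all higher), where 34.1% did. Groups did not overlap for 2 of 6 genes with IL-4 against control (40.3% of all genes), for 3 of 6 with IL-6 against control (43.2%) and for 3 of 6 between the cytokines (56.9%). These shares of 6 lie near the background and are no result about the list. The 6 log2 fold changes had a median of −0.30 (IL-4) and 0.17 (IL-6) against control, and of 0.49 between the cytokines, beside −0.20, −0.00 and 0.22 over all tested genes. The comparisons of each cytokine with control share the control libraries.

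**Figure D2:**
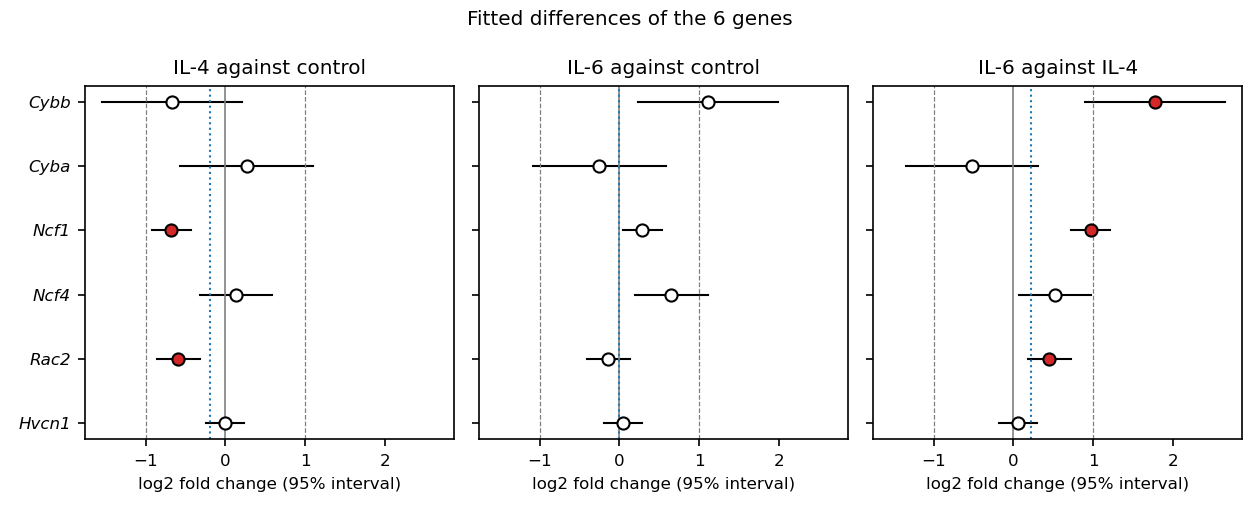
Log2 fold change of each gene with its 95% interval from limma (horizontal axis) for the 3 comparisons. Red points passed an adjusted p of 0.05, dashed lines mark a log2 fold change of 1 in size and the dotted line marks the median of all tested genes; only the Cybb point for IL-6 against IL-4 is both red and beyond a dashed line.

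Further helpers of the complex give the same values a frame. Cybc1 encodes the chaperone that the gp91phox and p22phox pair needs. It fell with IL-4, from 22.5, 25.8 and 24.5 FPKM in control to 16.3, 15.7 and 15.9 FPKM, a log2 fold change of −0.60 (SE 0.0978, limma adjusted p = 0.00301). The IL-4 libraries held its 3 lowest values, and IL-6 libraries, at 25.6, 26.0 and 26.9 FPKM, were higher than IL-4 by a log2 fold change of 0.71 (SE 0.0978, limma adjusted p = 0.000905). After median-ratio rescaling the Cybc1 log2 fold change for IL-4 against control was −0.40 (limma adjusted p = 0.0644). With quantile normalization it was −0.51 (limma adjusted p = 0.00358), and the adjusted p was under 0.05 in 21 of 23 alternatives. Rac1, the widely expressed relative of Rac2, differed little, at 83.3 ± 1.90 FPKM in control, 75.5 ± 2.01 FPKM with IL-4 and 76.8 ± 2.82 FPKM with IL-6. Rap1a, a small GTPase found with the flavocytochrome, was higher with IL-6 than with IL-4 by a log2 fold change of 0.77 (SE 0.148, limma adjusted p = 0.00491).

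The ratio of 2 transcripts within a library sets their levels per length side by side, free of the scaling of the library. The number of Cyba per Cybb transcripts, both per length, was 3.95, 10.4 and 7.06 in control, 5.34, 8.62 and 43.9 in IL-4 libraries and 1.95, 2.96 and 2.95 in IL-6 libraries. All IL-6 libraries lay below all others, and IL-4 #3 lay far above. Rac2 exceeded Rac1 by a ratio of 1.65, 1.95 and 1.81 in control, 1.28, 1.22 and 1.45 in IL-4 libraries and 1.72, 1.77 and 1.82 in IL-6 libraries, with the IL-4 libraries lowest. For Ncf4 over Ncf1 the control libraries were lowest, at 0.596, 0.724 and 0.689, the IL-6 libraries followed at 0.846, 0.859 and 0.871, and the IL-4 libraries were highest at 0.916, 0.990 and 1.78. The groups did not overlap for 2 of 6 ratios with IL-4 against control, for 4 of 6 with IL-6 against control and for 5 of 6 between the cytokines, where 40.3%, 43.2% and 56.9% of single genes did not overlap. No share over ratios of other gene pairs was taken, and the shares of single genes are not a background for ratios. Because 4 of the 6 ratios share Cybb, the counts of ratios are not independent of each other. The part of gene length in them was not tested. With 3 libraries against 3 the two-sided exact permutation test cannot go below p = 0.1, and after adjustment over the 18 tests the smallest value was 0.164, so no ratio passed.

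**Figure D3:**
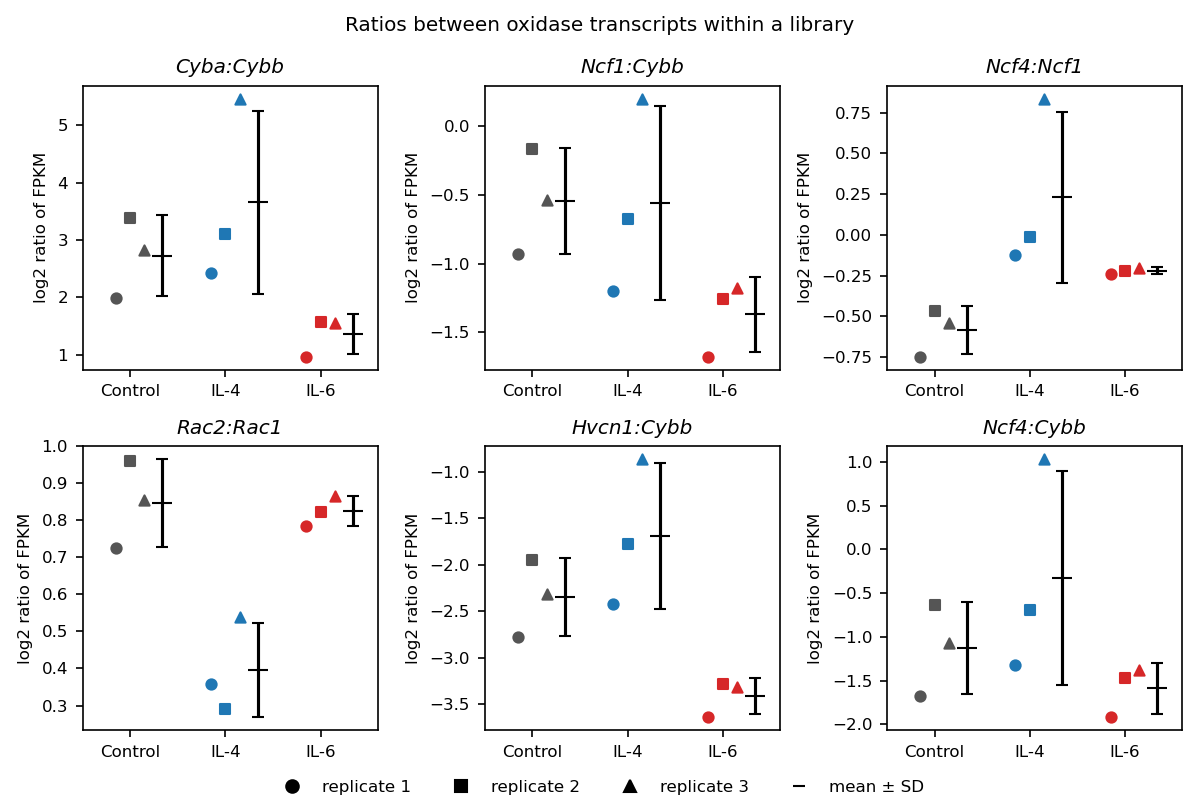
Log2 ratio of FPKM between pairs of oxidase transcripts within each library (vertical axis), by condition, with a marker for each replicate and the mean ± SD of the log2 ratios (n = 3). The Cyba:Cybb ratio is lowest in the IL-6 libraries and highest in IL-4 #3, and the Rac2:Rac1 ratio is lowest in the IL-4 libraries.

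Beyond the subunits, 65 genes on 6 lists were read with the complex, of which 52 were tested. Against control, 11 of the 52 were called with IL-4 (4 higher, 7 lower) and 6 with IL-6 (4 higher, 2 lower), and 13 differed between the cytokines (11 higher with IL-6, 2 lower). Over all genes 13.9%, 5.38% and 20.4% were called. When each library was left out in turn, 6 of the 11, 2 of the 6 and 7 of the 13 stayed called throughout: Gpx1, Irf8, Kcnn4, Slc9a9, Trpm2 and Vav1 for IL-4 against control, Slc9a9 and Sod2 for IL-6 against control, and Cebpe, Gpx1, Kcnn4, Slc9a9, Sod2, Trpm2 and Vav1 between the cytokines. All 30 of these differences kept their sign in every alternative that tested the gene. After median-ratio rescaling 5 of them missed the call: Vav1 for IL-4 against control (log2 fold change −0.95) and Nadk between the cytokines (0.84) by size, and Cebpb (adjusted p = 0.0864) and Kcnn4 (0.0809) for IL-6 against control and Prdx5 between the cytokines (0.0913) by limma's adjusted p. None of the 9 other NADPH oxidase genes, the Nox and Duox family with their own organizers, reached a mean of 0.5 FPKM. The highest single value was 0.551 FPKM for Noxo1, and Nox3 and Duox1 were listed at 0 in all libraries, so Cybb was the family's only catalytic subunit above that level.

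Among the 16 genes of assembly and activation, 3 were called with IL-4 against control, 1 with IL-6 against control and 3 between the cytokines. Of all tested genes 13.9%, 5.38% and 20.4% were called in the same order. Vav1, an exchange factor that loads Rac, was at 56.6, 56.5 and 55.9 FPKM in control, 27.4, 27.8 and 21.3 FPKM with IL-4 and 79.1, 78.7 and 77.8 FPKM with IL-6. No group overlapped another, in the order also seen for Ncf1. Vav1 fell with IL-4 (log2 fold change −1.15, SE 0.123, limma adjusted p = 0.000323) and was higher with IL-6 than with IL-4 by 1.63 on the log2 scale. Pik3cg, the lipid kinase downstream of chemoattractant receptors, fell with IL-4 from 10.5 ± 2.95 to 4.76 ± 2.13 FPKM (log2 fold change −1.21, limma adjusted p = 0.0445). Prex1, another exchange factor for Rac, was higher with IL-6 (41.8 ± 2.03 FPKM) than with IL-4 (14.7 ± 7.64 FPKM), a log2 fold change of 1.68 (limma adjusted p = 0.0173). Pla2g4a, the cytosolic phospholipase that frees arachidonic acid, rose with both cytokines, from 1.94 ± 0.154 FPKM in control to 5.34 ± 2.37 FPKM with IL-4 and 5.11 ± 0.168 FPKM with IL-6 (limma adjusted p = 0.0224 and 0.0426). Without one of the libraries these values reached 0.0729 and 0.151 at most. That of Pik3cg reached 0.148 for IL-4 against control and 0.0692 between the cytokines, and that of Prex1 0.0575; without IL-4 #3 the log2 fold changes of Pik3cg, −0.76 and 0.95, also fell short of the size required, as did −0.992 for IL-4 against control without Control #1.

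**Figure D4:**
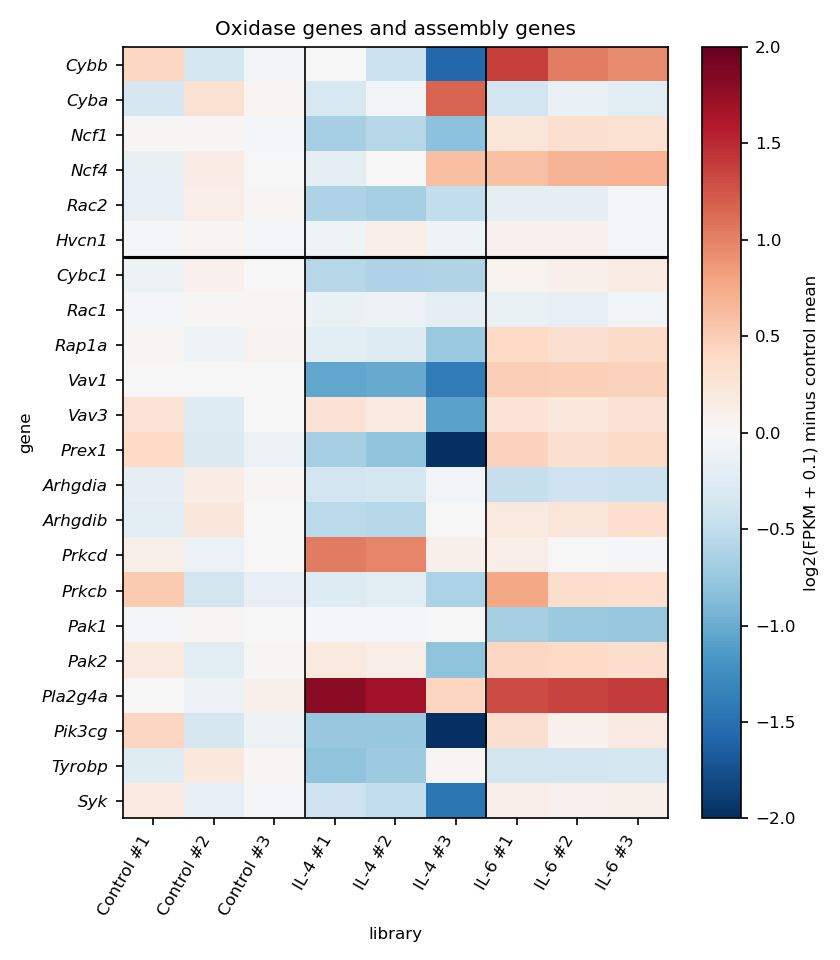
Heat map of log2(FPKM + 0.1) minus the control mean (colour, clipped at 2 in size) for the 6 oxidase genes above the black line and the 16 assembly and activation genes below it (rows) in each library (columns). Ncf1, Cybc1 and Vav1 are blue in the 3 IL-4 libraries, Pla2g4a is red in both cytokine groups, and IL-4 #3 differs from the other IL-4 libraries in several rows.

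The channels and transporters that balance charge and pH include some of the widest differences among the listed genes. Slc9a9, a sodium/proton exchanger of endosomes, fell from 62.3 ± 3.70 FPKM in control to 6.07 ± 1.47 FPKM with IL-4 (log2 fold change −3.37, limma adjusted p = 1.07e-05) and to 28.9 ± 1.98 FPKM with IL-6 (−1.10, limma adjusted p = 0.00848). Kcnn4, a calcium-activated potassium channel, went in opposite directions: from 5.56 ± 1.38 FPKM in control it rose to 52.0 ± 18.8 FPKM with IL-4 (log2 fold change 3.17, limma adjusted p = 0.000120) and fell with IL-6 to 2.31, 2.57 and 2.30 FPKM (−1.15, 0.0369). Trpm2, a cation channel opened under oxidative stress, fell with IL-4 from 5.31 ± 0.819 to 1.91 ± 0.713 FPKM (limma adjusted p = 0.00597). Kcna3, a voltage-gated potassium channel, was higher with IL-6 (3.22 ± 0.166 FPKM) than with IL-4 (0.550 ± 0.473 FPKM, limma adjusted p = 0.0444), although its control libraries ranged from 0.140 to 1.30 FPKM. The calls of Kcna3 between the cytokines and of Kcnn4 for IL-6 against control were lost when single libraries were left out, with adjusted p of up to 0.114 and 0.148, and the Kcnn4 log2 fold change was −0.99 without Control #3. For this list of 10 genes, 3 were called with IL-4 and 2 with IL-6 against control, and 4 between the cytokines. The shares over all tested genes were 13.9%, 5.38% and 20.4%, and a list this small was not tested as a set.

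The oxidase's products are removed by dismutases, catalase and peroxidases. Sod2, the mitochondrial superoxide dismutase, was at 22.5, 23.1 and 21.5 FPKM in control, 21.7, 20.2 and 23.7 FPKM with IL-4 and 139, 126 and 121 FPKM with IL-6. It rose with IL-6, with a log2 fold change of 2.51 against control (SE 0.108, limma adjusted p = 1.27e-05) and 2.55 against IL-4. Gpx1, the cytosolic glutathione peroxidase, rose with IL-4 from 256 ± 46.5 to 725 ± 327 FPKM (log2 fold change 1.43, limma adjusted p = 0.00875), with IL-4 #3 at 1101 FPKM the highest. Cat, catalase, fell with IL-4 from 220 ± 28.2 to 94.0 ± 32.5 FPKM (log2 fold change −1.29, limma adjusted p = 0.00922). Mpo, the neutrophil peroxidase that is also among the neutrophil markers above, fell with IL-4 from 34.9 ± 13.1 to 11.7 ± 6.17 FPKM (log2 fold change −1.62, limma adjusted p = 0.0345). Prdx5, a peroxiredoxin, was higher with IL-6 (313 ± 10.2 FPKM) than with IL-4 (149 ± 71.3 FPKM, limma adjusted p = 0.0174). Without one of the libraries the adjusted p reached 0.113 for Mpo and 0.0568 for Prdx5, whose log2 fold change was 0.996 without IL-4 #1 and 0.974 without IL-4 #2, both under the size required. Without IL-4 #3 Cat stayed under 0.05 but fell short of the size required. Of 11 tested genes on this list, 3 were called with IL-4 and 1 with IL-6 against control, and 4 between the cytokines, beside 13.9%, 5.38% and 20.4% of all tested genes.

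Of the 8 tested genes that supply NADPH, none was called with IL-4 and 1 with IL-6 against control, beside 13.9% and 5.38% of all tested genes. Me1, cytosolic malic enzyme, rose with IL-6 from 0.305 ± 0.0251 to 0.772 ± 0.149 FPKM (limma adjusted p = 0.0314, at most 0.131 without one of the libraries). Nadk, the kinase that makes NADP, was at 82.0 ± 5.70 FPKM in control, 41.5 ± 6.23 FPKM with IL-4 and 86.3 ± 3.12 FPKM with IL-6, and was called between the cytokines (log2 fold change 1.07, limma adjusted p = 0.000554), though without IL-4 #3 it fell short of the size required.

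Among 7 tested transcription factors known to act at oxidase genes, Spi1 (PU.1), the myeloid master factor, differed little, at 109 ± 8.67 FPKM in control, 122 ± 10.9 FPKM with IL-4 and 117 ± 6.26 FPKM with IL-6. Irf8 fell with IL-4, from 43.8, 43.1 and 42.8 to 22.2, 18.7 and 14.3 FPKM (log2 fold change −1.25, SE 0.160, limma adjusted p = 0.000837). Irf1 rose with IL-4, from 27.0, 23.6 and 21.4 to 88.7, 53.4 and 39.3 FPKM (log2 fold change 1.26, SE 0.281, limma adjusted p = 0.0132). IL-4 libraries thus held the lowest Irf8 and the highest Irf1 values. With IL-6, Irf8 was at 32.2, 36.4 and 36.2 FPKM, below every control library, and Irf1 at 25.4, 34.8 and 33.7 FPKM. Neither passed for IL-6 against control (limma adjusted p = 0.323 and 0.522). Cebpb rose with IL-6 from 38.7 ± 7.46 to 104 ± 21.8 FPKM (limma adjusted p = 0.0394), and Cebpe, a factor of granulocyte maturation, was higher with IL-6 (15.1 ± 2.49 FPKM) than with IL-4 (6.31 ± 1.05 FPKM, limma adjusted p = 0.00773). Without IL-4 #1, its highest library, the Irf1 log2 fold change was 0.94 (limma adjusted p = 0.0147), under the size required, and without Control #3 its adjusted p was 0.0544. The Cebpb call was lost without any of 7 libraries (up to 0.145). The Irf8 call for IL-4 against control was lost with the library set as a term. It was also lost with length and GC trends removed, with or without the replicate block.

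The interferon regulatory factors Irf8 and Irf1 bind elements built from repeated GAAA. Promoters are shown for Cybb and Ncf1, the 2 genes whose IL-6 libraries all lay above every other library. Whether Irf8 or Irf1 acts on these 2 genes here was not tested. Promoter sequences from RefSeq (GRCm38.p6) were given for 3 of the 6 genes (Cybb, Cyba and Ncf1). The letters GAAANNGAAA on either strand, the IRF motif, were found in the promoters of Cybb and Ncf1, 2 of the 3, and in 3.44% of 32851 promoters, each reaching from 250 bases before to 50 after the start site. The 250 bases before each start are given 5′ to 3′ on the gene's strand, with that motif in capitals on whichever strand it was found.
Cybb, chrX:9469325-9469574, minus strand: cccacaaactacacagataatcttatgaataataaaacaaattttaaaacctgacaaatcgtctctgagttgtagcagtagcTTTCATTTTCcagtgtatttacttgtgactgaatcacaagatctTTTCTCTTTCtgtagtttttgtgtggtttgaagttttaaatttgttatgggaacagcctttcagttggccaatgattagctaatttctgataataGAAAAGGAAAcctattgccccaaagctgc
Ncf1, chr5:134229626-134229875, minus strand: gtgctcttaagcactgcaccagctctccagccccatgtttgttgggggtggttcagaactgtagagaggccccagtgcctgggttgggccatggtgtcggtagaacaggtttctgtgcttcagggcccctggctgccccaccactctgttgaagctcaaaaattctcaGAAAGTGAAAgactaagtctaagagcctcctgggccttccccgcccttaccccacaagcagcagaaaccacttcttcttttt

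In Cybb the motif lay at −168 to −159, −124 to −115 and −29 to −20 from the start, and in Ncf1 at −82 to −73. A STAT motif, TTCNNNGAA, was found in Ncf1 at −88 to −80, where it overlaps the IRF motif, and in 8.30% of all promoters. The variant TTCNNNNGAA, a spacing that STAT6 accepts, was in 0 of the 3 and 6.95% of all promoters. The PU.1 core, GAGGAA, was in 28.3% of promoters and in Cybb alone of the 3, past the start site at 10 to 15. The RefSeq start of Cybb lies inside the wider extent of the gene in the GENCODE annotation given above. The printed bases were 34% GC in Cybb and 54.4% GC in Ncf1, and the shares of all promoters were not matched for GC. A match of letters is a description and not a binding site.

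Levels of the 6 genes can also be set against all tested genes. By mean FPKM in control, Cyba stood at the 99.8th percentile, Cybb at the 97.9th, Rac2 at the 97.8th, Ncf1 at the 96.7th and Hvcn1 at the 87.5th, with Ncf4 between these last. In control libraries Cybb and Rac2, at 157 ± 42.6 and 150 ± 15.2 FPKM, did not differ beyond their spread. With IL-6 Cybb was second of the 6, at the 99.2nd percentile, and with IL-4 Cybb (106 ± 51.0), Rac2 (99.5 ± 6.20) and Ncf4 (79.2 ± 23.7 FPKM) had spreads that overlapped. Over the 9 libraries, which share conditions, Cybb and Ncf1 had a Pearson r of 0.84 on the log2 scale, Ncf1 and Rac2 of 0.78 and Cybb and Cyba of −0.84.

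Finally, the tested genes most like each oxidase gene were listed by Pearson r over the 9 libraries on the log2 scale. For Cybb these were Cflar (r = 0.998), Abca13 and Celsr3, whose exons sum to 12669, 19737 and 12063 bases. For Cyba they were Edf1 (r = 0.997), Chmp2a and Ubxn1, whose exons sum to 1317, 1162 and 3047 bases. Ncf1 was closest to Vasp (r = 0.998), Vav1 and Lbp, the order of conditions being the same in each: Vasp was at 74.9 FPKM in control, 30.2 FPKM with IL-4 and 113 FPKM with IL-6. Ncf4 was closest to Rras (r = 0.964), Prdx6 and Tpi1, Rac2 to Tmem150a (r = 0.988), Pitpna and P2rx4, and Hvcn1, which hardly varied, to Slc30a6 (r = 0.850), Rbmx2 and Spast. Exons of the genes closest to Ncf1, Ncf4, Rac2 and Hvcn1 summed to 1121 (Rras) to 7025 bases (P2rx4). The part of length in all these matches was not tested.

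**Figure D5:**
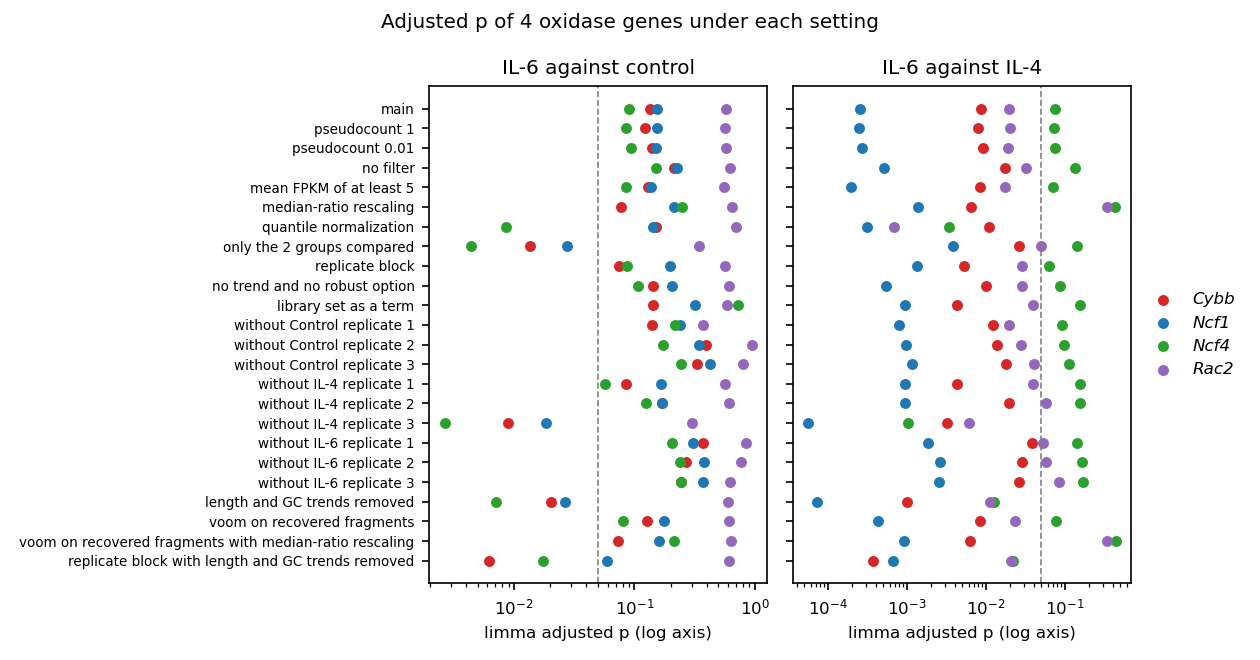
Limma adjusted p (horizontal log axis, dashed line at 0.05) of Cybb, Ncf1, Ncf4 and Rac2 in the reported fit (labelled main) and in 23 alternatives (rows), for IL-6 against control and IL-6 against IL-4. For IL-6 against IL-4, Cybb and Ncf1 lie left of the line in every row, and for IL-6 against control the points of Cybb, Ncf1 and Ncf4 lie left of it together in 3 rows: without IL-4 replicate 3, with only the 2 groups compared and with length and GC trends removed.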

How the data were processed

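The values are FPKM as the authors deposited them. The methods name a stranded mRNA kit, STAR 2.4.2a, GRCm38, Cufflinks 2.2.1 and the GENCODE M5 annotation. Identifiers matched GENCODE M21 with their version for 94.8% of genes. Steps of the FPKM of matched genes followed whole fragments (100% of 125444 values, tolerance 0.05), which gave each library's total. Cufflinks estimates abundances, so the program that made the table is not settled. The identifiers of Ncf4 and Rac2 matched in another version, and their positions are those of M21.

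FPKM were transformed as log2(FPKM + 0.1), so fold changes of low genes are understated. Genes whose mean was 0.5 FPKM or more, 12824 in number, entered a limma 3.58.1 fit (R 4.3.3), all 9 libraries in one model of 3 groups, eBayes with trend and robust options, and Benjamini-Hochberg adjustment over those genes. The FPKM keep no direct fragment counts, so no count model was the main test. Ratios were tested by the two-sided exact permutation test. Scripts used Python 3.11.15, pandas 2.3.3, scipy 1.17.1 and matplotlib 3.10.9. The fit was tested on simulated data.

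The members and lists were chosen with earlier results of these data known. Named genes are the 6 oxidase genes, further helpers of the complex (Cybc1, Rac1, Rap1a), at most the 4 largest called changes per list and comparison, the 3 genes most like each oxidase gene, and Socs3 and Arg1. Spi1, Vasp and marker genes were named besides, and 1 listed gene is not reported here. Marker lists of B, T and NK, dendritic, stromal and muscle cells were also read. They summed to at most 50.6, 3.51, 6.90, 0.824 and 15.2 FPKM in any library. Of these, Siglech was called lower with IL-4 and Tnni2 lower with both cytokines, against control. Tnni2 went against most of its list: 10 of the 18 muscle markers were higher and 2 lower in every IL-6 than in any control library. Myl1 was at 0 in the control libraries and IL-4 #1. It was at 0.675 to 1.27 FPKM in IL-4 #2, IL-4 #3 and the IL-6 libraries. Mylpf was at 0.378 to 0.778 and 2.21 to 5.48 FPKM in these 2 sets, which are those of the intestinal transcripts. The cause was not tested.

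No source used here says which libraries share a mouse, so p-values measure only the spread between these 9 libraries. Alternatives were another pseudocount, filter, scaling or moderation, 2 groups only, the replicate number as a block, the library set as a term and leaving out each library. Removal of length and GC trends (splines with 5 degrees of freedom), voom on recovered fragments and the block with trends removed were chosen after seeing the data. Voom scaled each library by its summed fragments of the tested genes of known length, with or without median-ratio rescaling.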

Additional observations from a re-analysis of the deposited data

How the results depend on the processing

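Log2 fold changes of the 6 oxidase genes kept their direction and side of the call in 391 of 414 alternative values, 4 newly passed the call and 19 changed sign without a call. The 4 were Cybb for IL-6 against control without IL-4 #3 and with only 2 groups fitted, and Ncf1 for IL-6 against IL-4 with quantile normalization and without IL-4 #2. The 19 all belong to log2 fold changes smaller than their SE in the reported fit, and none had an adjusted p under 0.05. For IL-4 against control, Cyba went from 0.27 to −0.0154 with quantile normalization, −0.31 with the library set as a term and −0.18 without IL-4 #3 (up to 0.56 without another library), and Ncf4 from 0.13 to −0.20 with the set as a term and −0.10 without IL-4 #3 (up to 0.30 without another). Hvcn1 went from −0.01 to 0.19 with median-ratio rescaling, 0.0308 with quantile normalization, 0.0154 with voom, 0.22 with voom after median-ratio rescaling, 0.16 with length and GC trends removed, with or without the block, and 0.0110 to 0.0256 without Control #2, IL-4 #1 or IL-4 #3 (down to −0.0834 without another). For IL-6 against control Hvcn1 was at −0.0654 with the set as a term instead of 0.04, and between the cytokines at −0.17 with median-ratio rescaling, −0.19 with voom after it and −0.0562 with trends removed, with or without the block, instead of 0.06. By count, 1 of the 6 was called for IL-6 against control with only 2 groups fitted, and 0 to 1 when each library was left out. Between the cytokines 2 were called with quantile normalization and 1 to 2 when each library was left out. Over all 12824 genes the fit of 2 groups called 985 for IL-6 against control, where the reported fit called 690. Quantile normalization called 2565 between the cytokines, where the reported fit called 2613. Counts over all genes without each library are given below. With an adjusted p under 0.05 alone the counts of the 6 were 2 for IL-4 against control and 3 between the cytokines, beside 24.8% and 34.1% of all tested genes. Of the listed pathway genes, the library set as a term left 5 called for IL-4 against control and 1 for IL-6 against control. Over all 12824 genes that fit called 1111 and 187, where the reported fit called 1784 and 690. No filter left 3 pathway genes for IL-6 against control, where 741 of 31047 genes were called. An adjusted p alone gave 23 pathway genes between the cytokines, where 34.1% of all tested genes passed. Leaving out each library gave 8 to 14, 2 to 8 and 8 to 14 called pathway genes for IL-4 against control, IL-6 against control and IL-6 against IL-4. Over all genes the same fits called 1450 to 2150, 387 to 1001 and 2124 to 3274. The cause of these differences was not tested. Libraries of different conditions share a replicate number that no source ties to a mouse: deviations of same-numbered libraries from their group means correlated at −0.415 to 0.521, and a library correlated best with its own number in 11 of 18 comparisons with another group. With the replicate number as a block, 0, 0 and 1 of the 6 genes and 10, 4 and 13 pathway genes were called for IL-4 against control, IL-6 against control and IL-6 against IL-4. Over all genes that fit called 1788, 656 and 2734. Rac2 for IL-4 against control also missed an adjusted p of 0.05 with the set as a term (0.0663) and with voom after median-ratio rescaling (0.148). For all genes, median-ratio rescaling changed the split of calls for IL-4 against control from 644 higher and 1140 lower to 838 and 868. With 3 libraries a group, the intervals of Cybb and Cyba span more than 1 log2 unit, which limits what can be said of them with IL-4.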
